A study of Mus musculus with 6 samples.

Results

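The genes described here encode the Golgi mannosidases and the N-acetylglucosaminyltransferases that trim and branch N-linked glycans. They were taken by symbol from a deposited table of 55291 genes, and all 10 listed members (Man1a, Man1a2, Man2a1, Man2a2, Mgat1, Mgat2, Mgat3, Mgat4a, Mgat4b and Mgat5) were found. RNA was sequenced from LLC (Lewis lung carcinoma) cells, a mouse lung cancer line. The 3 Calr KO libraries came from cells given plasmids for Cas9 and an sgRNA against Calr, the gene of the ER lectin chaperone calreticulin, and the 3 control libraries from cells given a control sgRNA, labelled WT. All cells were otherwise untreated and carried a single batch label, and each group was cultured for 10 days, seeded in 3 wells and collected 48 hours later. The labels do not say that a group was grown from a clone, and the wells of a group came from a single treated population, so every p-value here measures the spread between wells and not between independent knockouts.

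N-glycans are attached to proteins in the ER as a common precursor, whose glucose and first mannose residues are removed there while lectin chaperones such as calreticulin and calnexin bind the trimmed chain. In the Golgi, class I mannosidases (Man1a, Man1a2) remove further mannoses, Mgat1 adds the first N-acetylglucosamine (GlcNAc), class II mannosidases (Man2a1, Man2a2) take away more mannose, and Mgat2 starts the other arm. Mgat4a, Mgat4b and Mgat5 then add further branches, and Mgat3 adds the bisecting GlcNAc. The branches carry the galactose, fucose and sialic acid of mature surface glycans and are bound by galectins.

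None of the 10 enzyme mRNAs passed the test between Calr KO and control cells. In bulk RNA, fewer cells that express a gene and less of its RNA per cell cannot be told apart. All 10 were expressed, with means over the groups from 423 normalised counts for Mgat5 to 3963 for Man2a1, both in Calr KO cells. By limma on log2(value + 1), with Benjamini-Hochberg adjustment over 13199 genes, 0 members were higher and 0 were lower, against 0.197% of all tested genes higher and 0.0833% lower, 0.28% in all. With voom weights in place of equal weights the counts were also 0 and 0. An unadjusted p under 0.05 was found for 2 members, Mgat1 and Man1a, against 8.88% of all tested genes. The members' changes ran from -0.08 to 0.22 on the log2 scale with a median of 0.05, beside a median of 0.00036 over all tested genes. The 95% intervals of the single genes together spanned 0.831-fold (Mgat3) to 1.31-fold (Mgat1 and Man1a), so larger changes lay outside the interval of each gene.

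**Figure D1:**
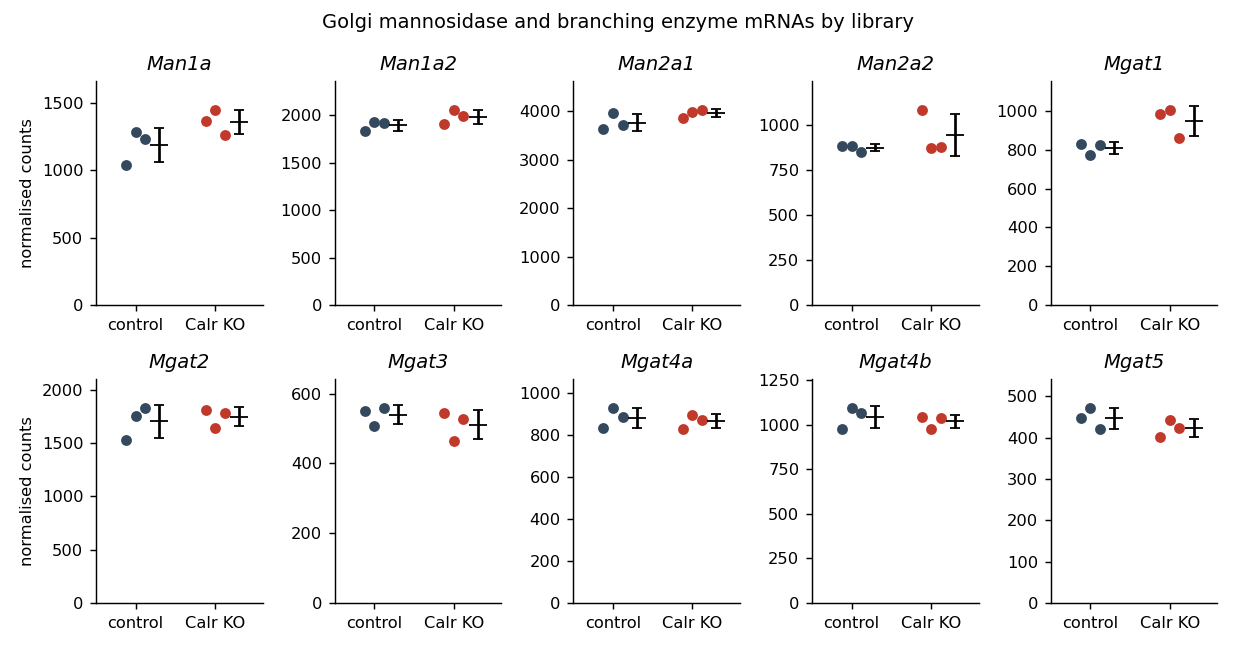
Normalised counts (y axis, starting at 0, scaled per gene) of each of the 10 enzymes in the 3 control and 3 Calr KO libraries (points), with the group mean and SD beside them. The groups overlap in every gene other than Mgat1, whose Calr KO libraries lie between 859 and 1003 and controls between 773 and 832.

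The 6 columns summed to between 14040692 and 14099985 normalised counts, which the authors' scaling brings close together whatever the depth, and log2 values correlated over genes at 0.985 to 0.986 within groups and 0.984 to 0.986 between them. The targeted gene, Calr, fell to 4379 ± 141 normalised counts from 10653 ± 426 in the controls (SD, n = 3; log2 change -1.28, SE 0.04, limma adjusted p = 7.9e-07). Of 12 lung epithelium markers, Krt8 (4375 to 4907 over the libraries) and Krt18 were expressed, whereas Epcam, Krt19, Nkx2-1, Sftpc, Sftpd and Scgb1a1 were listed at 0 in all libraries and Cdh1 did not exceed 4.98. The 7 fibroblast markers summed to between 22731 and 24345 in Calr KO and 22027 and 22915 in control, nearly all of it Col3a1 (up to 22096) and Pdgfra (1672 to 2137). Col1a1 (3.10 to 10.6) and Thy1 (at most 1.04) were near 0. Dcn, picked from its values, was at 31.9 in Calr KO and 15.5 in control cells without overlap (unadjusted p = 0.00506, limma adjusted p = 0.312). Col1a2, also picked, was lower without overlap, at 42.7 and 53.0 (limma adjusted p = 0.715). Of all tested genes, 7.57% were higher and 7.28% lower in Calr KO without overlap. Whether these markers bear on the members' values was not tested. The 7 macrophage markers summed to between 195 and 255 in Calr KO and 187 and 232 in control, with Adgre1 listed at 0 in all. Most of this was Cd14 (112 to 141 over the libraries) and Cd68 (53.4 to 94.5). The 6 endothelial markers summed to between 57.0 and 66.5 in Calr KO and between 47.6 and 70.6 in control, with Emcn listed at 0. Kdr was at 18.7 to 37.3. Cdh5, picked from its values, was at 6.80, 5.91 and 37.4 in Calr KO libraries and 2.98 to 4.17 in controls (limma adjusted p = 0.574). The 7 lymphocyte markers, 0 of them tested, summed to between 7.16 and 10.7 in Calr KO and, without overlap, between 0.967 and 6.22 in control. Cd79a did not exceed 7.18, and Cd3e, Cd4 and Ms4a1 were listed at 0.

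Class I mannosidases remove the outer mannoses of the chain that arrives from the ER. Man1a (ENSMUSG00000003746.16, minus strand, chr10:53904785-54076609) had 1367, 1444 and 1262 normalised counts in the Calr KO libraries and 1042, 1283 and 1232 in the controls. The means were 1358 ± 91.0 and 1186 ± 127 (SD, n = 3), a change of 0.20 (SE 0.08, 95% interval 0.01 to 0.39, limma adjusted p = 0.545). Control replicate 1 was the lowest of the 6, and Calr KO replicate 3 lay below control replicate 2, so the groups overlapped. Without control replicate 1 the change was 0.11. Man1a2 (ENSMUSG00000008763.16, minus strand, chr3:100562208-100685503) had 1903, 2051 and 1994 against 1828, 1929 and 1918, a change of 0.07 (95% interval -0.04 to 0.18, adjusted p = 0.746). These libraries also overlapped, with SDs of 3.77% and 2.92% of the mean, and leaving out single libraries moved the change between 0.043 (Calr KO replicate 2 omitted) and 0.097 (Calr KO replicate 1 omitted).

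Class II mannosidases act after Mgat1 has added its GlcNAc and commit the chain to the complex type. Man2a1 (ENSMUSG00000024085.13, plus strand, chr17:64600736-64755110) was the member with the most reads, at 3872, 3992 and 4024 in Calr KO and 3635, 3960 and 3717 in control libraries. Its change was 0.07 (95% interval -0.02 to 0.17, adjusted p = 0.674), with control replicate 2 inside the range of the Calr KO libraries. It was 0.046 without control replicate 1 and 0.11 without control replicate 2. Man2a2 (ENSMUSG00000038886.10, minus strand, chr7:80349097-80371375) had 1084, 877 and 879 against 887, 884 and 852. Calr KO replicate 1 stood above the other 5 libraries, which lay between 852 and 887. The change of 0.11 (95% interval -0.09 to 0.30, adjusted p = 0.773) was 0.0055 without that library.

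Mgat1 and Mgat2 add the GlcNAc residues that start the arms of a complex N-glycan. Mgat1 (ENSMUSG00000020346.16, plus strand, chr11:49244191-49263030) had 983, 1003 and 859 normalised counts in the Calr KO and 832, 773 and 825 in the control libraries. All 3 Calr KO libraries were above all 3 controls, as in 7.57% of all tested genes, and Mgat1 was the 1 member of the 10 whose groups did not overlap in either direction (14.8% of all tested genes). The opposite arrangement, with Calr KO lower, held for 0 members and for 7.28% of all tested genes. The means were 948 ± 78.1 and 810 ± 31.8 (SD, n = 3), 1.17-fold, a change of 0.22 (SE 0.07, 95% interval 0.06 to 0.39). Its unadjusted p was 0.0133 and its limma adjusted p 0.417, which did not pass. Over 16 alternatives the adjusted p of Mgat1 ran from 0.282 to 0.654 and the change from 0.18 to 0.29, highest without Calr KO replicate 3. Mgat2 (ENSMUSG00000043998.10, plus strand, chr12:69184157-69186770, a gene with 1 exon) had 1814, 1646 and 1785 against 1533, 1757 and 1830. The libraries were interleaved, and the change was 0.04 (95% interval -0.12 to 0.20, adjusted p = 0.919). Without control replicate 1, the lowest library for Mgat2, it was -0.038, and over the other libraries left out it ran from 0.011 (Calr KO replicate 1) to 0.090 (control replicate 3).

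Branching beyond the first antennae is done by Mgat4a, Mgat4b and Mgat5. Mgat4a (ENSMUSG00000026110.15, minus strand, chr1:37439340-37541016) measured 827, 895 and 871 normalised counts with Calr targeted and 831, 928 and 883 without. Mgat4b (ENSMUSG00000036620.14, plus strand, chr11:50210890-50235103) had 1042, 976 and 1039 against 976, 1095 and 1068. The changes of this pair were -0.03 (95% interval -0.17 to 0.12, adjusted p = 0.946) and -0.04 (95% interval -0.18 to 0.10, adjusted p = 0.908), and that of Mgat4a turned to 0.0055 with Calr KO replicate 1 left out and to 0.013 with control replicate 2 left out. That of Mgat4b was -0.0041 on omitting control replicate 2, -0.0066 on omitting Calr KO replicate 2 and -0.087 on omitting control replicate 1. Mgat5 (ENSMUSG00000036155.13, plus strand, chr1:127205015-127488336), which makes the branch that is extended with polylactosamine, had 401, 444 and 424 against 447, 472 and 421. The change of Mgat5 was -0.08 (95% interval -0.26 to 0.10, adjusted p = 0.835), with SDs of 5.04% and 5.68% of the mean in Calr KO and control cells. Dropping single libraries moved it between -0.12 (control replicate 3) and -0.038 (control replicate 2).

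Mgat3 places the bisecting GlcNAc, which hinders further branching. Mgat3 (ENSMUSG00000042428.6, plus strand, chr15:80173721-80215519) measured 544, 465 and 526 normalised counts with Calr targeted and 551, 508 and 559 without. Calr KO replicate 2 was the lowest of the 6, and the other Calr KO libraries lay within the control range. The change was -0.08 (95% interval -0.27 to 0.11, adjusted p = 0.840), -0.011 with Calr KO replicate 2 omitted and -0.12 with Calr KO replicate 1 or control replicate 2 omitted. By role, the estimates of the 4 mannosidases, Mgat1 and Mgat2 were above 0 and those of the 4 later transferases below 0, 6 of 10 above 0 beside 50.1% of all tested genes. None passed, and the signs of Mgat2 and Mgat4a turned when single libraries were left out.

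**Figure D2:**
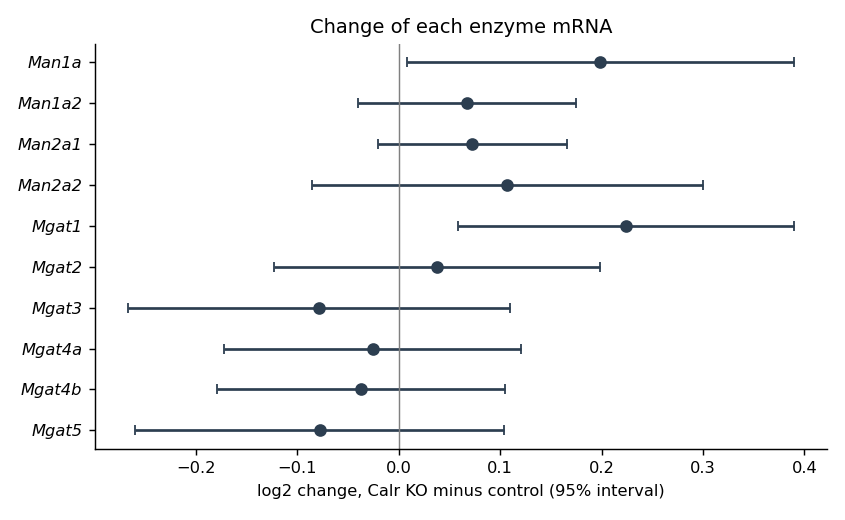
Log2 change between Calr KO and control cells (x axis, Calr KO minus control) of each enzyme mRNA (y axis), with points for the limma estimate and bars for its 95% interval. The 6 upper genes lie between 0.04 and 0.22 and the 4 lower ones between -0.08 and -0.03, and the intervals of Man1a and Mgat1 alone leave out 0, before adjustment.

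The proportions within 4 pairs of enzymes with the same or competing roles overlapped between the groups in every pair. Man1a was 0.719, 0.704 and 0.633 of Man1a2 in the Calr KO libraries and 0.570, 0.665 and 0.643 in the controls, in counts not divided by length. The log2 difference between the groups in this ratio was 0.13, and Calr KO replicate 3 fell within the control range. Man2a1 was 4.23 ± 0.574 times Man2a2 in the Calr KO group and 4.31 ± 0.196 times among controls (SD, n = 3). The ratio of Mgat4a to Mgat4b was 0.850 ± 0.0624 and 0.842 ± 0.0130, and that of Mgat5 to Mgat3 was 0.833 ± 0.111 and 0.831 ± 0.0894. A two-sided exact permutation test over libraries gave p = 0.3, 1, 0.9 and 1 for these 4 pairs in the order given, and 1 for each after adjustment over the 4. The smallest p this test allows with 3 libraries against 3 is 0.1.

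Levels of different genes were set side by side per kilobase of the longest annotated transcript. Mgat2 was highest with 661 ± 44.1 normalised counts per kilobase (SD over 6 libraries), followed by Man2a1 with 553 ± 22.6 and Mgat4b with 425 ± 19.9. Mgat1 (279 ± 29.4), Man1a (248 ± 26.6) and Man1a2 (243 ± 9.68) formed a middle group in which neighbours overlapped between libraries. Man2a2 (139 ± 13.1) was next, then Mgat4a (120 ± 5.34) and Mgat3 (113 ± 7.51), which overlapped. Mgat5 was lowest with 51.6 ± 2.92, 12.8-fold below Mgat2. Between the other neighbours in this order the ranges over the 6 libraries did not overlap. Mgat4b was 3.25 to 3.76 times Mgat4a, and Mgat3 was 1.89 to 2.45 times Mgat5, per kilobase over the libraries.

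The upper and middle parts of that order depended on the length assigned to each gene. With the mean length of the annotated coding transcripts, which include fragments, Man2a1 came first with 984 normalised counts per kilobase, then Mgat4b with 713 and Mgat2 with 661. Man1a2 (445), Man2a2 (377), Man1a (369) and Mgat1 (363) followed, so Man2a2 no longer lay below Man1a and Mgat1. The fold differences above hold for the longest transcripts. By mean coding length Mgat3 was at 113 beside 74.7 for Mgat5. Mgat4a, Mgat3 and Mgat5 were the lowest members in that order under both lengths. The isoforms in use in these cells were not measured.

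**Figure D3:**
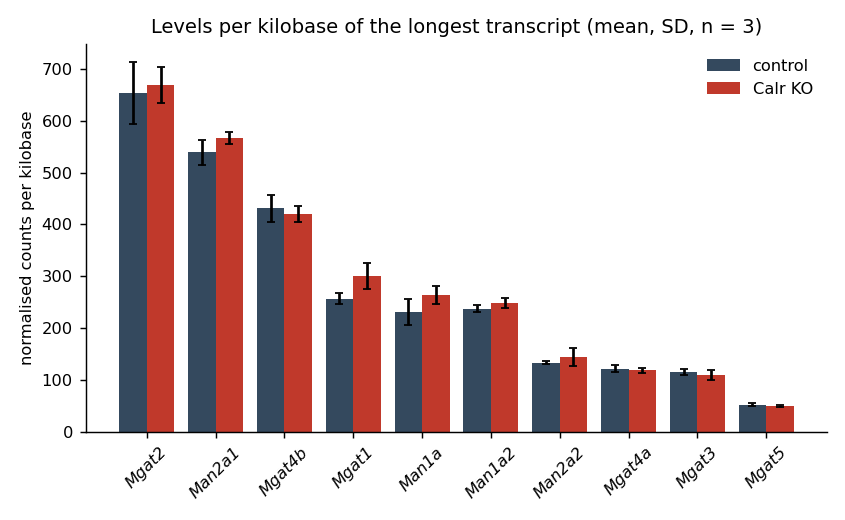
Normalised counts per kilobase of the longest transcript (y axis, from 0) of the 10 enzymes, as the mean of 3 control (dark) and 3 Calr KO (red) libraries with SD bars. Mgat2 is highest at 669 in Calr KO and 653 in control cells, and Mgat5 lowest at 50.2 and 53.0.

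Annotated exons of 5 members share bases with a gene on the opposite strand, and the sources used here do not state whether counting used strand. The shared stretches were 427 bases of Man2a2 with Hddc3 (mean 12.7 normalised counts), 152 of Mgat5 with Tmem163 (1.01), 147 of Man1a with Gm16998 (0.481), 67 of Man2a1 with Gm17133 (listed at 0) and 58 of Mgat2 with Gm49383 (214). The value of Mgat2 is the least certain in this respect, since its partner was at 214 normalised counts beside 1533 to 1830 for Mgat2 itself.

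The title of the series names an ER stress response, so the promoters of the members were searched for elements known from such responses. RefSeq promoters on GRCm38.p6 were matched by symbol for 6 members, with 9 start sites in all; Man1a2, Man2a2, Mgat3 and Mgat4b were not matched. The 250 bases before each start were read on both strands. The ER stress response element (ERSE), CCAAT and CCACG with 9 bases between them, is bound by ATF6 together with NF-Y. It was in 0 of the 9 member promoters, in 0.113% of all 32817 promoters and in those of 6 of the 22 matched genes among the 26 that were higher in Calr KO cells. Those genes were chosen by this comparison, so their share is a description. At 0.113%, 0 matches are likely in any 9 promoters, so the 0 says nothing particular of the members. Canx, Creld2, Dnajc3, Hsp90b1, Hspa5 and Pdia6 held the following elements, shown because no member promoter has one, written in the direction of the motif with CCAAT and CCACG in capitals.
Canx (chr11:50325800-50325818): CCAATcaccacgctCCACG
Creld2 (chr15:88819520-88819538): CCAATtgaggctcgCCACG
Dnajc3 (chr14:118937827-118937845): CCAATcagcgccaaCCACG
Hsp90b1 (chr10:86705638-86705656): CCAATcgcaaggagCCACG
Hsp90b1 (chr10:86705533-86705551): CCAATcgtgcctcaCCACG
Hspa5 (chr2:34772025-34772043): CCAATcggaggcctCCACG
Pdia6 (chr12:17266491-17266509): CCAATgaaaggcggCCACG
These letters, with the exact spacing, are a match and not a measured binding site, and their absence from a window says nothing of the factor.

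The same 9 promoters held no match to ERSE-II (ATTGG and CCACG with 1 base between them, in 0.0305% of all promoters), the UPRE core bound by XBP1 (TGACGTGG, 0.564%), the Golgi apparatus stress response element (ACGTGGC, 2.02%), the cyclic AMP response element (TGACGTCA, 1.55%), the amino acid response element (TGATGNAAT, 0.817%) or an ETS site (ACCGGAAG, 1.72%). The UPRE core and the Golgi element overlap in their letters. For each of these elements, too, 0 matches are likely in any 9 promoters. Only the exact letters given were searched, so variant forms of these sites were not counted. The GC box GGGCGG, a site for Sp1-type factors, was in 7 of the 9 and in 32.7% of all promoters. It was also in those of 14 of the 22 matched genes that were higher in Calr KO cells. Mgat1 and Mgat4a each gave more than 1 of the 9 windows, so these are not independent. GC content was 56% to 72.4% in the windows with a GC box and 50% and 33.6% in those without. Whether the members differ from promoters of like GC content was not tested. The promoters of Mgat1 and Man1a, the members with an unadjusted p under 0.05, and of Mgat2, the highest per kilobase of the longest transcript and the third by mean coding length, are shown for the 250 bases before the start with GC boxes on either strand in capitals. For Mgat1, which has 3 start sites, the window of the first is shown. RefSeq starts and GENCODE M21 gene ends do not always coincide. The windows of Man1a and Man2a1, and those of the later starts of Mgat1 and Mgat4a, lie inside the gene coordinates given above.
Mgat1 (chr11:49243941-49244190, plus strand): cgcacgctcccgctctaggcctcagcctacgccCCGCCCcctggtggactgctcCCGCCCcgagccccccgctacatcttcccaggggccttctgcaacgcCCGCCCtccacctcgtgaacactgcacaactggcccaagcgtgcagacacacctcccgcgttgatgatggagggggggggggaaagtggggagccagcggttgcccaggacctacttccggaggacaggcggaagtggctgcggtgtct
Man1a (chr10:54075738-54075987, minus strand): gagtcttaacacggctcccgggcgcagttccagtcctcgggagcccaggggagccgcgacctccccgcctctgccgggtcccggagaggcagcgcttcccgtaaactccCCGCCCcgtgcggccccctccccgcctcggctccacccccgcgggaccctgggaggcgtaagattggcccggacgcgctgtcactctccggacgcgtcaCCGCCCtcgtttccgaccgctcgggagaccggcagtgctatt
Mgat2 (chr12:69183908-69184157, plus strand): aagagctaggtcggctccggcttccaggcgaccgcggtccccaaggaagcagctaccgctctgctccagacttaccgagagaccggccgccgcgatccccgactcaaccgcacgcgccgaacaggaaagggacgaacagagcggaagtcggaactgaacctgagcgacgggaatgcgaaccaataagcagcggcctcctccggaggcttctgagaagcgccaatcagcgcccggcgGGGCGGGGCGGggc
The Mgat1 window shown had 3 GC boxes, 217, 196 and 149 bases before that start, and Man1a 2, at 141 and 42. Of the other Mgat1 windows, chr11:49247227-49247476 had 0 and chr11:49250302-49250551 had 3, at 54, 15 and 10 bases. The 2 of Mgat2 overlap within the last 14 bases before the start. The GC content of these windows was 68.8%, 72.4% and 66.8%.

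Other Golgi mannosidase genes and relatives of the Mgat genes were low or listed at 0. Of 6 such genes, Man1c1, a further class I mannosidase, had 13.0 ± 5.41 normalised counts in the Calr KO group and 11.8 ± 1.89 among controls (SD, n = 3) and was the 1 that could be tested (change 0.08, adjusted p = 0.975). Mgat4d did not exceed 4.47 in any library. Mgat4c, Mgat5b and Manea were listed at 0 in all 6 libraries, and Maneal was above 0 in 1 of them. The listed paralogs of Mgat4a, Mgat4b and Mgat5 were therefore at or near 0 in both groups.

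Upstream of the Golgi, 1 of 7 genes of glucose and mannose trimming in the ER passed, against 0.28% of all tested genes. Prkcsh, the regulatory subunit of glucosidase II, was at 2032, 2094 and 2143 normalised counts in the Calr KO libraries and at 2580, 2631 and 2587 in the controls. Its log2 value fell by 0.32 (SE 0.04, limma adjusted p = 0.0126). In fits chosen after seeing the data this call was lost on leaving out Calr KO replicate 1 (limma adjusted p = 0.0800) or 2 (0.0670), or control replicate 2 (0.0714) or 3 (0.0722). A single variance prior also ended it, at an adjusted p of 0.301. It held, at 0.0473, with Calr KO replicate 3 removed and, at 0.0490, with control replicate 1 removed, and the change lay between -0.33 and -0.29 in all 6 fits that left out a library. The other 6 did not pass. Of these, Edem1 and Edem2, mannosidase-like proteins of ER-associated degradation picked from their values, had all Calr KO libraries above all controls. Such an arrangement held for 7.57% of all tested genes. Edem1 was at 1863 and 1573 normalised counts in the group means (change 0.25, 95% interval 0.10 to 0.39, unadjusted p = 0.00395, adjusted p = 0.290), and Edem2 at 736 and 657 (change 0.17, adjusted p = 0.513). The remaining 4 overlapped between the groups. Of 4 lysosomal and cytosolic mannosidases 0 passed, with Manba at 0.02 (adjusted p = 0.975) and Man2b1 at -0.05 (adjusted p = 0.922).

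Downstream, 0 of the 11 tested enzymes of galactose, fucose and sialic acid capping passed, of 16 listed. B4galt1, which adds galactose to the branches, changed by -0.05 (95% interval -0.16 to 0.06) and Fut8, which adds the core fucose, by 0.02 (95% interval -0.12 to 0.16). The median over the 11 was 0.06. B3gnt2, which extends polylactosamine and was chosen after its values were seen, had 1206, 1220 and 1198 in Calr KO and 948, 1232 and 972 in control libraries (unadjusted p = 0.0479, limma adjusted p = 0.556). Its control replicate 2 lay above all Calr KO libraries. St6gal1, also picked, changed by -0.11 (limma adjusted p = 0.700). All its Calr KO libraries were below all controls, as in 7.28% of all tested genes.

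The supply of UDP-GlcNAc, the donor that all Mgat enzymes use, and the turnover of its precursors showed 0 of 10 genes passing. Of the transporters that bring nucleotide sugars into the Golgi, 0 of 9 passed. Uap1, which makes UDP-GlcNAc, changed by -0.03 (95% interval -0.14 to 0.09), and Gfpt1, the entry enzyme of the hexosamine pathway, by -0.08 (95% interval -0.39 to 0.22). Slc35a3, a UDP-GlcNAc transporter, changed by -0.04 (adjusted p = 0.880) and Slc35a4 by 0.09 (adjusted p = 0.861). The medians of these lists were 0.00012 and 0.09. Gfpt1 varied more among its control libraries, from 1124 to 1645, than between the group means of 1230 and 1318. Picked from its values, Slc35a1 changed by 0.41 with overlapping groups (limma unadjusted p = 0.0276, adjusted p = 0.503). Slc35a2 (-0.14, limma adjusted p = 0.762) and the low Gfpt2 (-0.52, 0.727) had all Calr KO libraries below all controls. That held for 7.28% of all tested genes.

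Of 11 genes listed for the COG complex and Golgi enzyme retention, most of which help keep glycosyltransferases in their cisternae, 0 passed. Their median was -0.06. Golph3 changed by -0.01 (95% interval -0.12 to 0.10) and Cog5 by -0.06 (adjusted p = 0.840). Picked from their values, Cog2 changed by -0.39 (limma unadjusted p = 0.0295, adjusted p = 0.509) and Cog4 by -0.18 (0.0321 and 0.510). In Cog4 and Cog7 all Calr KO libraries were below all controls, as in 7.28% of all tested genes. A list of 9 genes held galectins, which bind the galactose of branched glycans, and the galectin-binding protein Lgals3bp. Of these, 6 were tested and 0 passed. Lgals1, the most abundant, had 20404 ± 349 and 19506 ± 463 normalised counts in the Calr KO and control groups (SD, n = 3, change 0.06, limma adjusted p = 0.502). All 3 of its Calr KO libraries were above the controls, as in 7.57% of all tested genes. Lgals7, picked from its values, had the same arrangement, with group means of 62.6 and 52.2 (limma adjusted p = 0.764). Lgals3, which binds Mgat5-modified receptors, changed by 0.08 (adjusted p = 0.739).

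**Figure D4:**
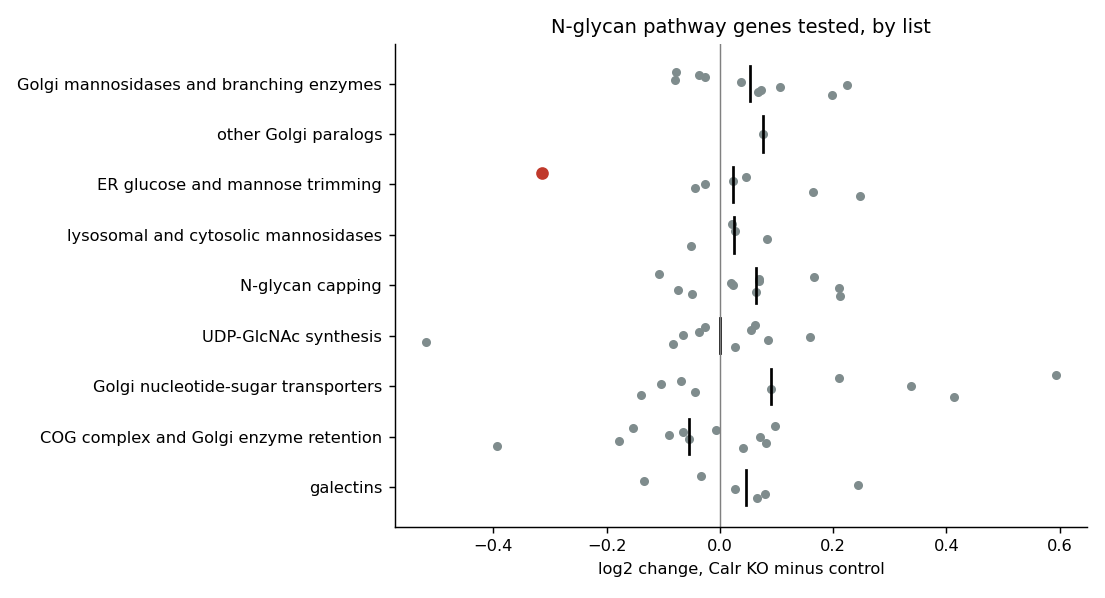
Log2 change (x axis, Calr KO minus control) of each tested gene (points) in the 9 lists of the N-glycan pathway (y axis), with a black line at each list's median. Prkcsh at -0.32 (red) was the only gene of these lists with an adjusted p under 0.05, and the medians lie between -0.06 and 0.09.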

How the data were processed

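RNA-seq libraries of 3 Calr KO and 3 control wells of LLC cells were compared. The authors deposited 1 signal per gene and library, a count normalised with DESeq2, per the labels' column names. Salmon 0.14.1, STAR 2.6.1d and DESeq2 1.34.0 are listed beside mm10, without roles, in the submitters' processing notes, with the annotation release not given in the sources used here. Values of 100 to 1000 normalised counts were whole multiples of the estimated worth of 1 read, within 0.02, in 3.44% to 4.14% of cases, about what that tolerance gives for arbitrary values, so whole reads were not recovered and no count model was run. The values may be estimates rather than whole counts, which no source used here states, and the depth of the libraries is therefore unknown.

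The log2(value + 1) of genes with a mean of at least 10 was fitted in limma 3.58.1 (R 4.3.3), moderated with a mean-dependent variance prior. Tests were two-sided, with p-values adjusted over all tested genes by Benjamini-Hochberg and called under 0.05; the scale understates changes of low genes. All 10 members passed the filter. Pair ratios were tested with scipy 1.17.1. Coordinates and lengths are from GENCODE M21 on GRCm38, which matched 53292 of 55291 symbols. The members and lists were chosen with earlier results of these data known. Named genes are the members, Calr, and per list up to 4 that passed or else the 2 with the highest mean; any other gene named was chosen after its values were seen. Alternatives were other pseudocounts, filters, scalings, variance priors and weights, a replicate block, leaving out each library, and another transcript length.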

Additional observations from a re-analysis of the deposited data

How the results depend on the processing

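The counts of 0 members higher and 0 lower held in all 16 alternative fits, while the number of all genes called was 37 as reported, 2 with a single variance prior, and 20 to 34 when single libraries were left out, the lowest on dropping Calr KO replicate 1 (20) or 3 (21), or control replicate 2 or 3 (22 each). Deviations of same-numbered libraries from their group means correlated at -0.06, -0.01 and 0.0014. With 3 libraries per group these correlations are not independent, so they do not settle whether the wells were paired. With the replicate block 26 genes and 0 members passed. Leaving out libraries moved Mgat4a over -0.067 to 0.013, above 0 without control replicate 2 (0.013) or, at 0.0055, without Calr KO replicate 1, and Mgat2 over -0.038 to 0.090, below 0 without control replicate 1; the cause was not tested. It moved the log2 pair differences over 0.065 to 0.19 for Man1a and Man1a2, -0.095 to 0.083 for Man2a1 and Man2a2, -0.045 to 0.059 for Mgat4a and Mgat4b and -0.10 to 0.084 for Mgat5 and Mgat3, so the last 3 changed sign. With mean coding transcript lengths the normalised counts per kilobase were 369 for Man1a, 445 for Man1a2, 984 for Man2a1, 377 for Man2a2, 363 for Mgat1, 226 for Mgat4a, 713 for Mgat4b and 74.7 for Mgat5, higher by construction since those lengths are shorter. With 3 wells per group, changes within the interval given for each gene remain possible. An interval that left out 0 was not enough for a call after adjustment. That of Mgat1 ran from 0.06 to 0.39, and its limma adjusted p was 0.417. The smallest change that would have passed was not worked out.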
